A study of Mus musculus with 3 samples.

Results

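The genes described here are 35 genes of the unfolded protein response and of protein folding in the endoplasmic reticulum (ER). They are the ER stress sensors and their transcription factors, targets of these factors, ER chaperones and oxidoreductases, and genes of ER-associated degradation. The genes were listed by name and matched to the files by Ensembl gene ID through GENCODE M21 symbols on GRCm38. All 35 were found among the 52948 gene IDs of the files, and all 35 were among the 12950 genes with a mean of at least 1 FPKM (counted fragments divided by gene length and by the library's total) over the libraries. The list names them by function, given below as background. It uses no measured level, but it was chosen with earlier results of these data known.

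RNA sequencing gave the levels in αTC1-6 cells, which are a mouse line that came from a glucagon-producing α-cell tumour driven by a transgenic viral oncogene and that is 1 clone. Cells carried an adenovirus for 16 h that expressed NIK, NIK(KA) or β-galactosidase (β-Gal), so all 3 groups were infected. NIK is the NF-κB-inducing kinase, which drives the non-canonical NF-κB pathway. NIK(KA) is known in the literature as a form with a mutated kinase site, although the labels do not spell this out. There was 1 library a group, so the spread between replicates is unknown and no test was made.

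Proteins that enter the ER are folded there by the chaperone BiP with its partners, by the lectin chaperones calnexin and calreticulin, and by enzymes that form disulfide bonds. When unfolded proteins build up, the sensors IRE1, ATF6 and PERK start the unfolded protein response: IRE1 splices the Xbp1 mRNA, ATF6 is cut into a transcription factor, and PERK phosphorylates eIF2α, which lowers translation and favours that of ATF4. XBP1 and ATF6 raise chaperones and degradation genes, and ATF4 with CHOP raises genes of amino acid supply, translation recovery and cell death. In endocrine cells that secrete peptide hormones, such as the α cell, this system carries a constant load. FPKM per gene measures neither the splicing of Xbp1, nor the cutting of ATF6, nor phosphorylation.

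The regulatory sequence best known for the chaperone genes is the ER stress response element (ERSE), bound by NF-Y and ATF6, and it is shown here because it separates the genes by a feature that does not come from the measurements. It is CCAAT, then any 9 bases, then CCACG. RefSeq promoters (GRCm38.p6) were matched for 31 of the 35 genes, with Ero1l and Ero1lb matched through the synonyms of their current symbols; Hyou1, Manf, Derl1 and Atf6 were not matched. On either strand of the 250 bases before the start, 10 of the 31 genes (32.3%) held an ERSE, against 35 of all 27025 genes (0.13%). These genes were Hspa5, Hsp90b1, Calr, Canx, Pdia6, Dnajc3, Creld2, Syvn1, Derl3 and Ero1lb, and Hsp90b1 held 2. The start is that of RefSeq and can differ from the GENCODE gene start: the Hspa5 match below, and the Asns match further on, lie inside the GENCODE gene. For 28 of the 31 genes, bases just past the RefSeq start lay in a GENCODE transcript of the gene, and for the others they did not. A match is a description of letters and is not a binding site. The stretches below run 5′ to 3′ on the strand that holds the motif, with the fixed bases of the motif in capitals and 8 flanking bases on each side.
Hspa5, chr2:34772017-34772051, plus strand: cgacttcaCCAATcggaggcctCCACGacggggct
Hsp90b1, chr10:86705630-86705664, minus strand: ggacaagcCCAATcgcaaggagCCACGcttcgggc
Hsp90b1, chr10:86705525-86705559, plus strand: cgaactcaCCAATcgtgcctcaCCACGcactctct
Calr, chr8:84847067-84847101, plus strand: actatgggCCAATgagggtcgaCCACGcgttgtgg
Canx, chr11:50325792-50325826, minus strand: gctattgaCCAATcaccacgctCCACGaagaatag
Pdia6, chr12:17266483-17266517, plus strand: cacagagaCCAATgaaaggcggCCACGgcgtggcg
Dnajc3, chr14:118937819-118937853, plus strand: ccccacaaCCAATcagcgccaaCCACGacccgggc
Creld2, chr15:88819512-88819546, minus strand: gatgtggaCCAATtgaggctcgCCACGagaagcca
Syvn1, chr19:6046524-6046558, plus strand: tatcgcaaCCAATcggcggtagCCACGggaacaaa
Derl3, chr10:75893234-75893268, minus strand: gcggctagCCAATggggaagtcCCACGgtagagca
Ero1lb, chr13:12565674-12565708, minus strand: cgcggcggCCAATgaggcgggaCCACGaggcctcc

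Other elements were searched on both strands of the same windows. ERSE-II (ATTGG, any 1 base, CCACG) was held by Herpud1 alone of the 31 genes (3.23%), against 0.037% of all genes. The C/EBP-ATF element of ATF4 targets (TGATG, any 1 base, AA) was held by Herpud1, Chac1 and Asns (9.68%), against 3.91% of all genes. The XBP1 element UPRE, TGACG followed directly by TGG, was held by 0 of the 31 genes and by 0.603% of all genes. A κB-like motif (GGGA, any 4 bases, CC) was held by 7 of the 31 (22.6%) and by 19.7% of all genes. The ERSE-II match of Herpud1 and the C/EBP-ATF matches of Chac1 and Asns are shown because these elements belong to the branch of ATF4 or to a variant of the ERSE.
Herpud1, chr8:94386369-94386395, plus strand: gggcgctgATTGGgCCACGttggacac
Chac1, chr2:119351041-119351064, minus strand: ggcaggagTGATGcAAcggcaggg
Asns, chr6:7693217-7693240, minus strand: cagccacaTGATGaAActtcccgc

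The libraries held 15523580 counted reads for NIK, 16652922 for NIK(KA) and 18629668 for β-Gal. These totals and the whole reads of each gene were recovered from the steps of the deposited FPKM, and the 35 genes had between 195 and 22284 reads in a library. Map3k14, which encodes NIK, had 8.42 FPKM in NIK and 12.1 in NIK(KA), against 5.35 in β-Gal, and Nfkb2, a gene of the non-canonical pathway, had 261 FPKM in NIK and 9.07 in NIK(KA), against 5.80 in β-Gal. Of 12 α-cell markers 11 passed the expression filter, and 5 of these were at least 1.5-fold lower in NIK than in β-Gal, as were 5.79% of all genes, with a median log2 difference of -0.55 over the 11. Gcg, which encodes glucagon, had 6955 FPKM in NIK, 10197 in NIK(KA) and 12093 in β-Gal, and Ins1 and Ins2 were listed at 0 throughout. The summed level of 7 heart muscle markers was 1.44 FPKM in NIK and 1.62 in NIK(KA), against 34.9 in β-Gal, where the matrix gene Smoc2 had 74005 reads against 7 in NIK and 4 in NIK(KA). The liver markers Alb and Apoa2 were highest in NIK(KA): NIK held 6 reads of Alb and NIK(KA) 75, against 18 in β-Gal, and NIK held 20 reads of Apoa2 and NIK(KA) 60, against 24 in β-Gal. Another liver marker, Serpina1a, was highest in NIK, which held 428 reads of it and NIK(KA) 38, against 48 in β-Gal. The part of these marker differences in the values below was not tested. The comparison of NIK with NIK(KA) leaves out β-Gal and its heart markers, but not the liver markers of NIK(KA).

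Most of the 35 genes were highest in β-Gal and lowest in NIK. β-Gal was the highest library for 26 of the 35 genes, against 30.5% of all 12950 genes, and NIK was the lowest for 24 of the 35, against 44.0% of all genes. For 20 of the 35 the levels ran NIK, NIK(KA), β-Gal from lowest to highest, an order that 22.1% of all genes had. Together the 35 genes took 0.742% of the counted reads in NIK (exact binomial 95% interval 0.738 to 0.747) and 0.780% of those in NIK(KA) (0.776 to 0.785), against 0.911% in β-Gal (0.906 to 0.915). The share was 0.815 times that of β-Gal in NIK (0.809 to 0.821), and for NIK(KA) it was 0.857 times (0.851 to 0.863). Such intervals take in counting error alone, and even that is understated where PCR copies were counted as reads, since the sources name no molecular identifiers. For 7 of the 35 genes, named below, the reads are the fewest that give whole values, so the shares may be too low. In bulk RNA, fewer cells that express a gene and less RNA of it per cell cannot be told apart.

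**Figure D1:**
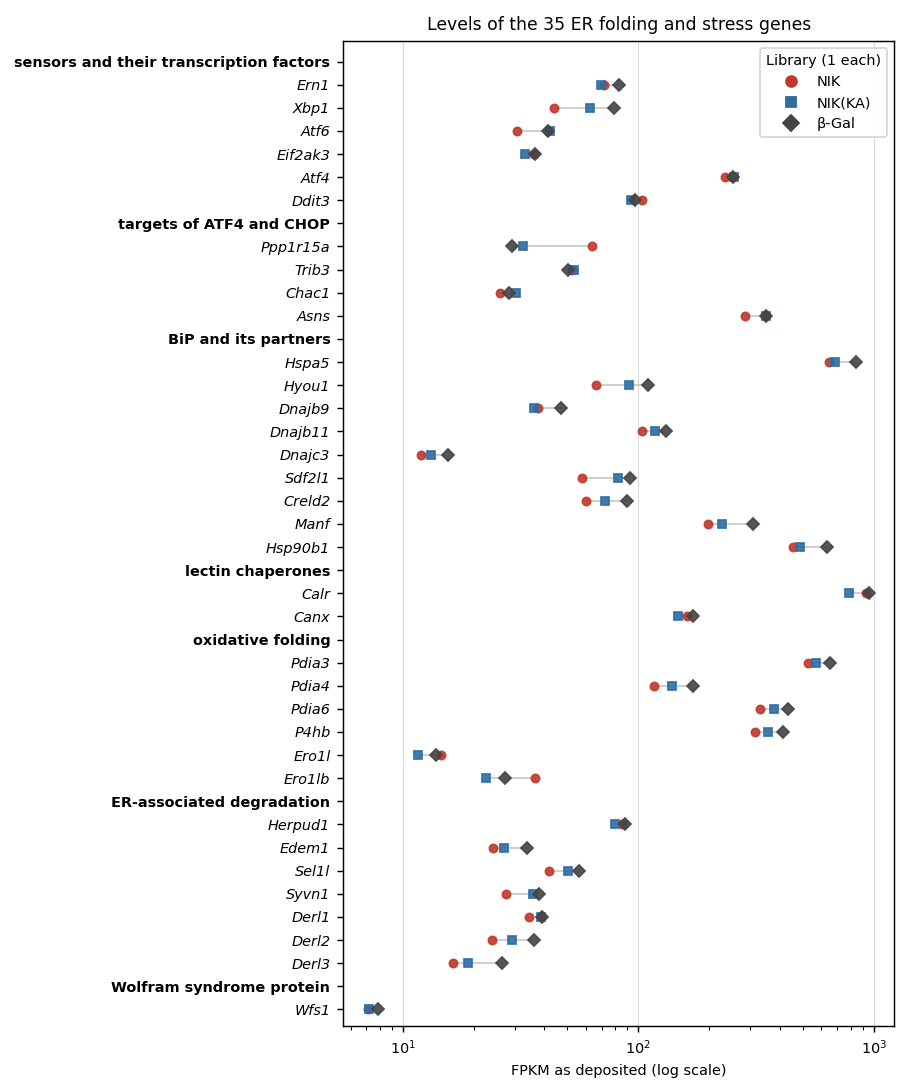
FPKM (log axis) of each of the 35 genes in the NIK, NIK(KA) and β-Gal libraries, grouped by role, with 1 point per library. Calr, Hspa5, Pdia3 and Hsp90b1 were the most abundant and Wfs1 the least, and the β-Gal point is the rightmost for 26 genes.

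The differences below are of log2(FPKM + 1), a scale that understates the difference of low genes. The NIK and NIK(KA) libraries were each set against the same β-Gal library, so these comparisons share it. In NIK against β-Gal the median difference of the 35 genes was -0.33, with 30 of 35 below 0, against a median of -0.02 and 52.5% below 0 over all genes. In NIK(KA) against β-Gal the median was -0.21, with 29 of 35 below 0, against 0.01 and 47.2% over all genes. In NIK against NIK(KA) it was -0.14, with 25 of 35 below 0, against -0.03 and 54.4%. These medians are well under 2-fold, and few of the 35 genes passed a set fold size.

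By the 2-fold rule only Ppp1r15a of the 35 was higher in NIK than in β-Gal, where 5.14% of all genes were, and 0 were lower, where 1.48% of all genes were. In NIK(KA) against β-Gal 0 genes were 2-fold higher and 0 lower, with backgrounds of 0.263% and 0.417%. In NIK against NIK(KA) 0 were higher and 0 lower, with backgrounds of 5.07% and 1.1%. At 1.5-fold, Ppp1r15a alone was higher in NIK than in β-Gal (9.98% of all genes), and 5 genes, Xbp1, Hyou1, Sdf2l1, Manf and Derl3, were lower (5.79% of all genes). The number of lower genes was 8 with upper quartile scaling, which added Creld2, Derl2 and Pdia4. At that size 0 were higher and 0 lower in NIK(KA) than in β-Gal, where 1.19% and 1.44% of all genes were. Between NIK and NIK(KA) 2 were 1.5-fold higher, Ppp1r15a and Ero1lb (9.62% of all genes), and 0 were lower (5.24%); with a pseudocount of 5 only 1 was higher.

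A milder rule asked whether the counting interval of the ratio excluded 1, and it depends on depth: the 35 genes had a median of 1909 reads in β-Gal, against 630 over all genes. By it 2 genes, Ppp1r15a and Ero1lb, were higher in NIK than in β-Gal (26.6% of all genes) and 26 were lower (28.2% of all genes). In NIK(KA) against β-Gal 1 was higher, Ppp1r15a (18.9%), and 25 were lower (14.4%). In NIK against NIK(KA) 6 were higher (24.5%) and 21 lower (30.4%). NIK stood above both other libraries for 2 genes (20.1% of all genes) and below both for 20 (21.6% of all genes). Below, a bracket after a ratio of levels gives this interval. Ratios are of reads per library total, and so of FPKM.

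**Figure D2:**
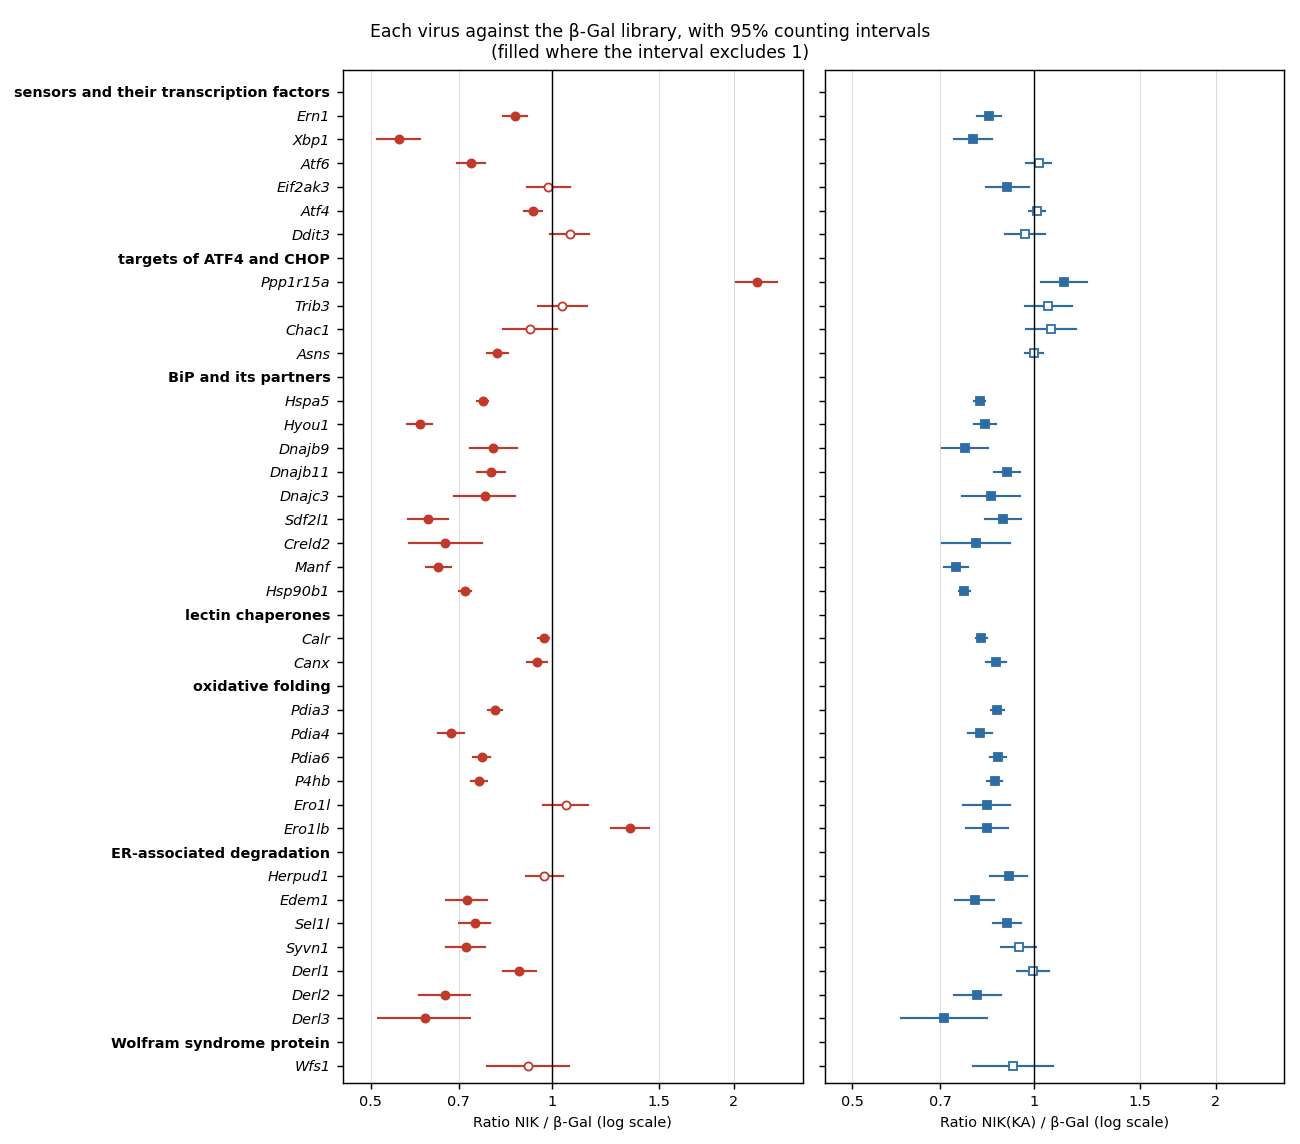
Ratio of the FPKM in NIK (left panel) or NIK(KA) (right panel) to the β-Gal FPKM, on log axes, for the 35 genes by role; bars are exact 95% counting intervals and filled points have an interval that excludes 1. In NIK 26 filled points lie left of 1 and 2, Ppp1r15a and Ero1lb, lie right of it, and in NIK(KA) 25 lie left and 1 right.

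Among the 6 sensors and transcription factors, Xbp1, Atf6 and Ern1 had lower levels in NIK than in β-Gal and the PERK branch lay closer to 1. Xbp1 (ENSMUSG00000020484, chromosome 11, 5520659 to 5525893), the transcription factor of the IRE1 branch, had 43.8 FPKM in NIK and 62.3 in NIK(KA), against 78.6 in β-Gal. The 3 libraries were well separated: its ratio was 0.557 in NIK against β-Gal (0.513 to 0.604), 0.793 in NIK(KA) against β-Gal (0.738 to 0.851) and 0.702 in NIK against NIK(KA) (0.644 to 0.766). Of the 35 genes it had the lowest ratio of NIK to β-Gal. Ern1, which encodes the sensor IRE1α, had 71.8 FPKM in NIK and 69.7 in NIK(KA), against 82.8 in β-Gal, and its ratios to β-Gal were 0.867 (0.827 to 0.909) in NIK and 0.843 (0.804 to 0.883) in NIK(KA).

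Atf6, the sensor that is itself a transcription factor, was low only in the NIK library by the interval rule. It had 30.5 FPKM in NIK and 42.3 in NIK(KA), against 41.5 in β-Gal, a ratio of 0.734 (0.695 to 0.774) in NIK and of 1.02 (0.971 to 1.07) in NIK(KA). Against NIK(KA), NIK stood at 0.721 (0.682 to 0.761). Eif2ak3, which encodes PERK, had 35.9 FPKM in NIK and 33.0 in NIK(KA), against 36.5 in β-Gal, with a ratio in NIK of 0.985 (0.907 to 1.07) to β-Gal. Atf4, the transcription factor whose translation PERK favours, had 234 FPKM in NIK and 255 in NIK(KA), against 252 in β-Gal, with a ratio in NIK of 0.929 (0.899 to 0.960). Ddit3, which encodes CHOP, had 103 FPKM in NIK and 93.7 in NIK(KA), against 96.9 in β-Gal. The interval of its ratio of NIK to β-Gal, 1.07 (0.991 to 1.15), included 1, and that of NIK to NIK(KA), 1.10 (1.02 to 1.19), did not.

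The 4 targets of ATF4 and CHOP had unlike values. Ppp1r15a (ENSMUSG00000040435, chromosome 7, 45522916 to 45526268) encodes GADD34, the phosphatase subunit that reverses the phosphorylation of eIF2α. It had 63.4 FPKM (1815 reads) in NIK and 32.6 FPKM (1000 reads) in NIK(KA), against 29.1 FPKM (998 reads) in β-Gal. NIK stood apart from the other libraries: its ratio was 2.18 to β-Gal (2.02 to 2.36) and 1.95 to NIK(KA) (1.80 to 2.11), while NIK(KA) was at 1.12 to β-Gal (1.03 to 1.22). The difference of log2(FPKM + 1) was 1.10 in NIK against β-Gal and 0.94 in NIK against NIK(KA). Ppp1r15b, its constitutive counterpart and no member of the 35, had 40.5 FPKM in NIK and 44.7 in NIK(KA), against 44.5 in β-Gal; it was chosen after its values were seen.

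The other 3 targets were at or below the β-Gal level in NIK, or above it by less than their counting interval. Trib3, a pseudokinase that CHOP induces, had 52.4 FPKM in NIK and 53.3 in NIK(KA), against 50.4 in β-Gal, and all 3 of its intervals included 1. Its log2 difference of 0.05 in NIK against β-Gal was -0.02 after upper quartile scaling, so its direction is not given. Chac1, which encodes an enzyme that degrades glutathione, had 26.0 FPKM in NIK and 30.2 in NIK(KA), against 28.3 in β-Gal, with a ratio in NIK of 0.918 (0.828 to 1.02) to β-Gal and of 0.860 (0.775 to 0.954) to NIK(KA). Asns, the asparagine synthetase and a standard readout of ATF4, had 284 FPKM in NIK and 351 in NIK(KA), against 350 in β-Gal. NIK was at 0.811 (0.780 to 0.843) to β-Gal and at 0.811 (0.779 to 0.843) to NIK(KA), and NIK(KA) lay on the β-Gal level, at 1.00 (0.965 to 1.04).

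Among BiP and its partners 9 of 9 genes were below β-Gal in both other libraries, with median log2 differences for NIK and NIK(KA) of -0.48 and -0.30. Of all genes, 52.5% were below 0 in NIK and 47.2% in NIK(KA) against β-Gal. Every one of these 9 genes had both intervals below 1. In NIK against NIK(KA) 8 of 9 were below 0, against 54.4% of all genes, with a median of -0.18. Hspa5 (ENSMUSG00000026864, chromosome 2, 34771970 to 34777547) encodes BiP itself and holds the ERSE shown first above. It had 647 FPKM in NIK and 686 in NIK(KA), against 844 in β-Gal. Both ratios to β-Gal lay well below 1, with 0.767 (0.751 to 0.783) for NIK and 0.813 (0.797 to 0.830) for NIK(KA), while NIK and NIK(KA) were close, at 0.943 (0.922 to 0.965).

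Hsp90b1, which encodes the ER form of the chaperone HSP90, and whose promoter window holds 2 ERSE matches, had 454 FPKM in NIK and 485 in NIK(KA), against 633 in β-Gal. Its ratios to β-Gal were 0.718 (0.701 to 0.735) in NIK and 0.767 (0.750 to 0.784) in NIK(KA), so β-Gal was set apart from both. Manf, an ER protein that is also secreted and that binds BiP, had 198 FPKM in NIK and 227 in NIK(KA), against 306 in β-Gal, with ratios of 0.648 (0.617 to 0.679) and 0.742 (0.709 to 0.776). Hyou1, the nucleotide exchange factor of BiP, had 66.2 FPKM in NIK and 91.1 in NIK(KA), against 110 in β-Gal. By the intervals each library differed from the others. NIK was at 0.603 (0.575 to 0.631) to β-Gal and 0.727 (0.692 to 0.764) to NIK(KA), and NIK(KA) was at 0.829 (0.796 to 0.864) to β-Gal. Sdf2l1, which works with the BiP co-chaperone Dnajb11, had 57.6 FPKM in NIK and 82.2 in NIK(KA), against 92.5 in β-Gal. It had the same shape, with NIK at 0.622 (0.576 to 0.672) to β-Gal and at 0.701 (0.646 to 0.759) to NIK(KA). NIK(KA) was at 0.888 (0.830 to 0.951) to β-Gal.

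The DnaJ co-chaperones, which hand unfolded clients to BiP, had the ratios of NIK to β-Gal nearest to 1 in this group. The interval of each of them included the Hspa5 ratio of 0.767, so this rank lies within counting error. Dnajb9 had 37.4 FPKM in NIK and 35.98 in NIK(KA), against 46.8 in β-Gal, with ratios to β-Gal of 0.799 (0.731 to 0.873) and 0.768 (0.703 to 0.839). In NIK(KA) its interval included the Hspa5 ratio of 0.813. Dnajb9 was the only gene of the group in which NIK was not below NIK(KA), at 1.04 (0.944 to 1.15). Dnajb11 had 104 FPKM in NIK and 118 in NIK(KA), against 131 in β-Gal, with ratios to β-Gal of 0.792 (0.752 to 0.835) and 0.901 (0.857 to 0.947). Dnajc3 had 12.0 FPKM in NIK and 13.2 in NIK(KA), against 15.6 in β-Gal, with ratios of 0.772 (0.688 to 0.867) and 0.848 (0.759 to 0.947). Creld2, an ER protein induced by ER stress, had 59.9 FPKM in NIK and 72.2 in NIK(KA), against 90.0 in β-Gal. Its ratio of 0.665 in NIK (0.578 to 0.764) was just short of the 1.5-fold rule on the log2(FPKM + 1) scale. For Dnajb11, Dnajc3, Creld2, Syvn1, Derl1, Atf4 and Ero1l the gene length behind the FPKM was not the mean transcript length, and the fewest reads that give whole values were used, so their intervals may be too wide.

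The lectin chaperones Calr and Canx had another order, with NIK(KA) lowest. Calr, calreticulin, the most abundant of the 35 in each library, had 928 FPKM in NIK and 784 in NIK(KA), against 959 in β-Gal. NIK was near β-Gal, at 0.967 (0.948 to 0.987), and NIK(KA) was lower, at 0.818 (0.801 to 0.835). Canx, calnexin, had 161 FPKM in NIK and 147 in NIK(KA), against 170 in β-Gal, with ratios of 0.943 (0.908 to 0.980) and 0.865 (0.832 to 0.898). NIK stood above NIK(KA) for both, at 1.18 (1.16 to 1.21) for Calr and 1.09 (1.05 to 1.14) for Canx. Both promoters hold an ERSE, as those of Hspa5 and Hsp90b1 do.

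In NIK against NIK(KA) the 4 protein disulfide isomerases had lower levels, and the 2 oxidases that recharge them had higher levels. In NIK(KA) against β-Gal all 6 oxidative folding genes had lower levels, so there was no such division. The 4 isomerases were also lower in NIK than in β-Gal. Outside the 35 genes, the isomerase Tmx3 was higher and the oxidase Qsox1 lower in NIK than in β-Gal, as given below. Pdia4 had 116 FPKM in NIK and 139 in NIK(KA), against 171 in β-Gal, with ratios to β-Gal of 0.681 (0.648 to 0.715) and 0.815 (0.778 to 0.853). P4hb, the classical protein disulfide isomerase, had 313 FPKM in NIK and 356 in NIK(KA), against 413 in β-Gal, with ratios of 0.757 (0.733 to 0.780) and 0.861 (0.836 to 0.887). Pdia6 had 330 FPKM in NIK and 376 in NIK(KA), against 432 in β-Gal, with ratios of 0.763 (0.739 to 0.789) and 0.870 (0.844 to 0.898). Pdia3, which acts on glycoproteins held by calnexin and calreticulin, had 525 FPKM in NIK and 568 in NIK(KA), against 653 in β-Gal, with ratios of 0.804 (0.783 to 0.825) and 0.870 (0.849 to 0.892). All 4 thus ran β-Gal highest, NIK lowest.

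Ero1lb (ENSMUSG00000057069, chromosome 13, 12565874 to 12611396) encodes ERO1β, the ER oxidase prominent in the pancreas. It had 36.3 FPKM in NIK and 22.6 in NIK(KA), against 27.1 in β-Gal. NIK was the highest library and NIK(KA) the lowest: the ratio was 1.34 in NIK against β-Gal (1.25 to 1.44), 0.837 in NIK(KA) against β-Gal (0.772 to 0.907) and 1.60 in NIK against NIK(KA) (1.48 to 1.74). It is the only gene with an ERSE of the 10 whose level was higher in NIK than in β-Gal. Ero1l, which encodes the ubiquitous ERO1α, had 14.6 FPKM in NIK and 11.6 in NIK(KA), against 13.9 in β-Gal. Its ratio of NIK to NIK(KA) was 1.26 (1.15 to 1.38), and that of NIK to β-Gal, 1.05 (0.967 to 1.15), had an interval that included 1 and changed sign on the log2 scale with upper quartile scaling.

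**Figure D3:**
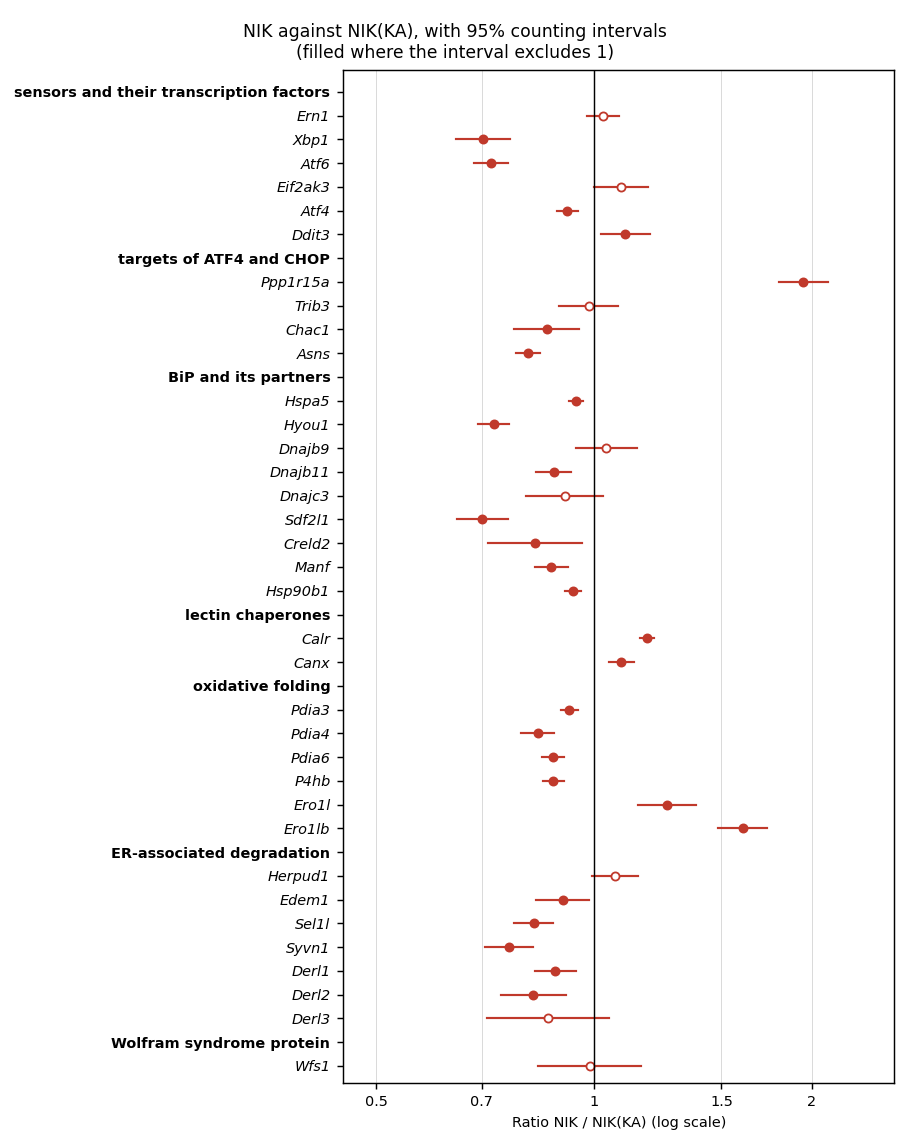
Ratio of FPKM in NIK to that in NIK(KA) (log axis) for the 35 genes by role, with exact 95% counting intervals and filled points where the interval excludes 1. The 6 filled points right of 1 are Ppp1r15a, Ero1lb, Ero1l, Calr, Ddit3 and Canx, and 21 lie left of 1, with Sdf2l1, Xbp1, Atf6 and Hyou1 the lowest.

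All 7 genes of ER-associated degradation, which move misfolded proteins to the cytosol for the proteasome, had lower FPKM in NIK than in β-Gal, with a median log2 difference of -0.45; the interval of Herpud1 included 1. In NIK(KA) the median was -0.15, and the intervals of Syvn1 and Derl1 included 1. Of all genes, 52.5% were below 0 in NIK and 47.2% in NIK(KA) against β-Gal. Syvn1, the ubiquitin ligase HRD1, had 27.4 FPKM in NIK and 35.9 in NIK(KA), against 38.1 in β-Gal, and NIK stood apart at 0.719 (0.668 to 0.774) to β-Gal and 0.762 (0.706 to 0.823) to NIK(KA). Sel1l, the adaptor of HRD1, had 41.7 FPKM in NIK and 50.6 in NIK(KA), against 56.1 in β-Gal, with ratios to β-Gal of 0.744 (0.701 to 0.790) and 0.902 (0.854 to 0.953). Edem1, which marks glycoproteins for disposal, had 24.2 FPKM in NIK and 26.8 in NIK(KA), against 33.6 in β-Gal, with ratios of 0.722 (0.667 to 0.780) and 0.798 (0.740 to 0.859).

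The derlins are membrane proteins of the same export channel, and their levels differed by member. Derl3 had 16.3 FPKM (195 reads) in NIK and 18.8 FPKM (242 reads) in NIK(KA), against 26.5 FPKM (381 reads) in β-Gal, with ratios to β-Gal of 0.614 (0.514 to 0.732) and 0.711 (0.602 to 0.837). Derl2 had 24.0 FPKM in NIK and 29.1 in NIK(KA), against 36.1 in β-Gal, with ratios of 0.664 (0.602 to 0.731) and 0.805 (0.736 to 0.880). Derl1 was closer to 1: it had 34.3 FPKM in NIK and 38.8 in NIK(KA), against 38.9 in β-Gal, with ratios of 0.881 (0.827 to 0.939) and 0.997 (0.938 to 1.06). Herpud1, a scaffold of the HRD1 complex that ATF4 and ATF6 both induce, had 85.1 FPKM in NIK and 79.6 in NIK(KA), against 87.7 in β-Gal. NIK could not be told from β-Gal by its interval, at 0.971 (0.906 to 1.04), and NIK(KA) was at 0.908 (0.847 to 0.973). Wfs1, the ER membrane protein mutated in Wolfram syndrome, was the least abundant of the 35, with 7.12 FPKM in NIK and 7.22 in NIK(KA), against 7.82 in β-Gal, and all 3 of its intervals included 1.

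Read against the promoter motif, the 10 genes with an ERSE had a median log2 difference of -0.39 in NIK against β-Gal, with 9 of 10 below 0, and the 21 without one had -0.30, with 17 of 21 below 0. In NIK(KA) against β-Gal the values were -0.27 with 10 of 10 below 0, and -0.15 with 16 of 21. In NIK against NIK(KA) they were -0.11 with 7 of 10 below 0, and -0.12 with 14 of 21. Over all genes, 52.5%, 47.2% and 54.4% were below 0 in these comparisons, in the order given. The ranges overlapped: the ratio of NIK to β-Gal lay between 0.614 and 1.34 in the genes with an ERSE and between 0.557 and 2.18 in those without. The 3 genes with a C/EBP-ATF element had ratios of NIK to β-Gal between 0.811 and 0.971.

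Neighbouring processes were described with 9 further lists of 187 genes, chosen with earlier results of these data known. In NIK against β-Gal 2 of the 172 that passed the filter (1.16%) were 2-fold higher, against 5.14% of all genes, and 0 were lower, against 1.48%. Sec11c, a catalytic subunit of the signal peptidase, had 126 FPKM in NIK and 48.3 in NIK(KA), against 55.7 in β-Gal, with ratios in NIK of 2.27 (2.09 to 2.46) to β-Gal and 2.62 (2.40 to 2.86) to NIK(KA). Tmx3, a membrane-bound disulfide isomerase, had 49.1 FPKM in NIK and 21.4 in NIK(KA), against 23.6 in β-Gal, with ratios of 2.08 (1.97 to 2.20) and 2.30 (2.17 to 2.44). In NIK(KA) both were below the β-Gal level, at 0.866 (0.784 to 0.956) and 0.905 (0.847 to 0.966). The other 23 translocon and signal peptide genes held 0 past either fold, and the list of 24 had a median log2 difference of -0.06 in NIK and -0.12 in NIK(KA).

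The remaining lists of ER function lay between the 35 genes and all genes. N-glycosylation and glucose trimming (21 genes) had medians of -0.16 in NIK and -0.02 in NIK(KA) against β-Gal. Its largest differences were those of Magt1, an oligosaccharyltransferase subunit, with 9.41 FPKM in NIK and 10.3 in NIK(KA), against 13.9 in β-Gal, and Ostc, another subunit, with a ratio in NIK of 0.736 (0.683 to 0.793). COPII export and KDEL retrieval (20 genes past the filter) had medians of -0.19 and -0.06, led by the coat genes Sec23a, at 0.659 (0.551 to 0.786), and Sec24d, at 0.684 (0.543 to 0.858). The other isomerases and oxidoreductases listed for the ER (17 genes) had medians of -0.19 and -0.02. Of these genes 1 was 1.5-fold lower in NIK than in β-Gal (5.79% of all genes). It was the sulfhydryl oxidase Qsox1, named after its values were seen, with 35.2 FPKM in NIK and 54.1 in NIK(KA), against 54.5 in β-Gal. The other degradation genes (23) had medians of -0.09 and -0.05, led by the ubiquitin ligase Rnf5, at 0.651 (0.575 to 0.736), and the membrane selenoprotein Selenos, at 0.687 (0.627 to 0.753).

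Beyond the 35 genes, the eIF2α branch had few large differences. The other ATF4 targets of amino acid metabolism and stress (31 genes) had 0 genes past either fold. Of all genes, 5.14% were 2-fold higher and 1.48% lower in NIK than in β-Gal, and 9.98% and 5.79% at 1.5-fold. The medians of the list were -0.11 in NIK and 0.06 in NIK(KA) against β-Gal. In NIK against NIK(KA) its median was -0.19, with 25 of 31 below 0, against -0.03 and 54.4% over all genes. Atf5, a related stress transcription factor, had 247 FPKM in NIK and 204 in NIK(KA), against 172 in β-Gal, and Gpt2, the mitochondrial alanine transaminase, had 51.3 FPKM in NIK and 72.6 in NIK(KA), against 71.5 in β-Gal. The list thus held members on both sides of β-Gal in NIK. The eIF2 kinases, eIF2 and its regulators (14 genes) had medians of -0.01 and 0.02, with the exchange factor subunits Eif2b4 and Eif2b2 farthest from 1 in NIK, at 0.773 (0.704 to 0.849) and 1.15 (1.05 to 1.26). Among other ER membrane transcription factors and their proteases (7 genes past the filter), the lowest ratios were those of Creb3l3, at 0.438 (0.259 to 0.716) with 1.40 FPKM in NIK, and Creb3l2, at 0.659 (0.613 to 0.708).

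A list of heat shock genes outside the ER, which holds a protease as well as chaperones, had a median of the opposite sign against β-Gal. The 15 cytosolic and mitochondrial heat shock genes past the filter had a median log2 difference of 0.12 in NIK and 0.19 in NIK(KA) against β-Gal. Of them 6 of 15 and 3 of 15 were below 0, against 52.5% and 47.2% of all genes. Bag3, a co-chaperone of HSP70, had 26.0 FPKM in NIK and 17.9 in NIK(KA), against 16.2 in β-Gal, a ratio in NIK of 1.61 (1.46 to 1.77) to β-Gal. Lonp1, the mitochondrial protease, had 359 FPKM in NIK and 257 in NIK(KA), against 263 in β-Gal, a ratio in NIK of 1.36 (1.33 to 1.40). In NIK against NIK(KA) the median of this list was -0.04, beside -0.14 for the 35 ER genes and -0.03 for all genes. In that comparison 11 of 15 were below 0, against 54.4% of all genes. Bag3 and Lonp1 were on the other side, with higher FPKM in NIK than in NIK(KA). 

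**Figure D4:**
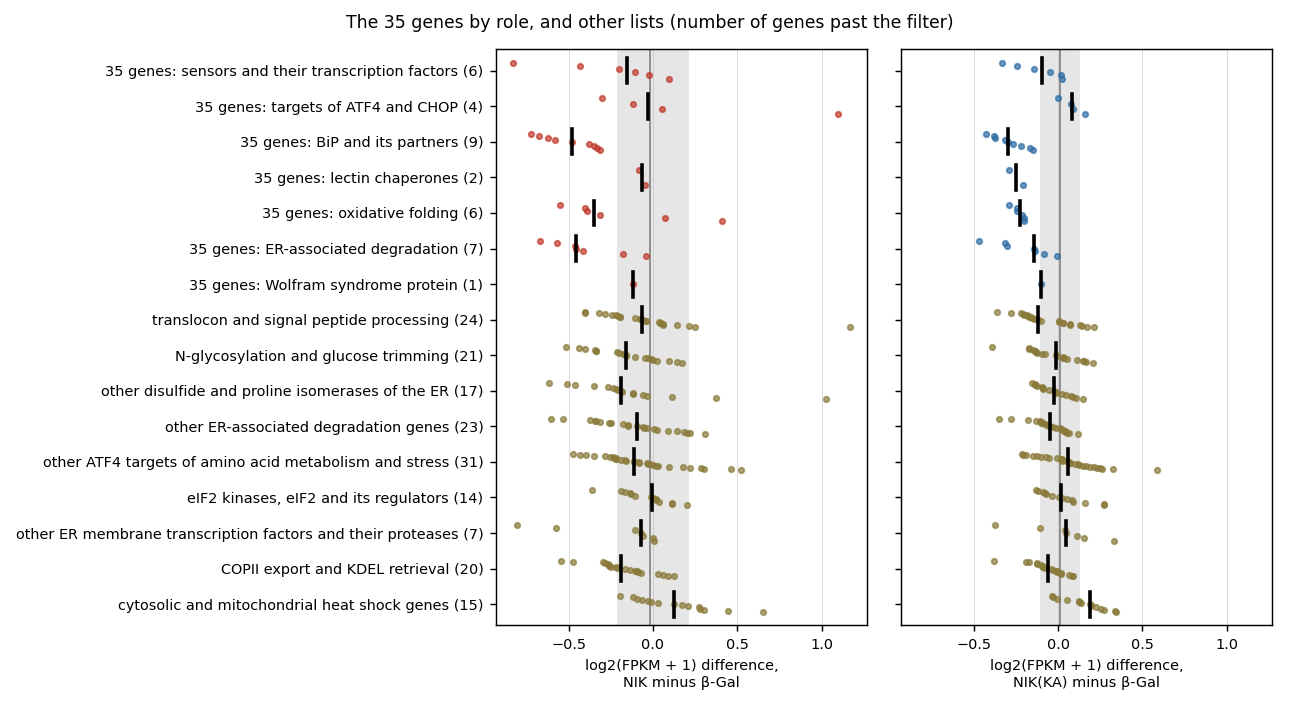
Difference of log2(FPKM + 1) in NIK (left) and NIK(KA) (right) against β-Gal, with 1 point per gene, for the 35 genes by role and the 9 further lists; short black bars are list medians, the grey line is the median of all genes past the filter and the grey band their middle quartiles. The medians of BiP and its partners (-0.48) and of the degradation genes (-0.45) lie lowest in NIK, and that of cytosolic and mitochondrial heat shock genes lies above 0 (0.12).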

How the data were processed

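Total RNA of 3 αTC1-6 cultures was sequenced with 1 library per group. The submitters' processing notes name TopHat2, HTSeq 0.6.1 and GRCm38 without roles; how reads of several copies were counted, the strand setting and the annotation release are not stated in the sources given. FPKM per gene ID were deposited by the authors, and 0 columns were left unused. Exons of 11 of the 35 genes overlap another annotated gene, 10 of them on the opposite strand, whose reads cannot be told apart without strand; in Hsp90b1 the overlap with 1810014B01Rik covers 10.3% of exon bases.

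Library totals were taken from the FPKM steps at GENCODE M21 mean transcript lengths. Reads whole within 0.001 were recovered for 26582 of 26584 detected genes and summed to 99.5%, 99.5% and 99.6% of the totals in NIK, NIK(KA) and β-Gal. Ratios carry exact conditional binomial 95% intervals. Differences are of log2(FPKM + 1), among genes with a mean of at least 1 FPKM, without Map3k14, and calls are differences of at least 2-fold or 1.5-fold. The recovery was also run on simulated reads made with the lengths and totals it had chosen. Such a run cannot show whether those lengths are right for the deposited values. No count model was fitted, because each group is 1 library.

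The members and all lists were chosen with earlier results of these data known. The genes named are all 35 members and, from each other list, up to 4 genes past 2-fold in NIK against β-Gal or otherwise the 2 with the largest difference, with Map3k14 and Nfkb2 as checks of the labels; others are marked, apart from the cell markers and Smoc2. Alternatives were a pseudocount of 0.1 or 5, no filter or one at a mean of 5 FPKM, and scaling by median ratio, by upper quartile or to equal library sums. Python 3.11.15, pandas 2.3.3, NumPy 2.4.6, SciPy 1.17.1 and matplotlib 3.10.9 were used.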

Additional observations from a re-analysis of the deposited data

How the results depend on the processing

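The median differences of the 35 genes kept their sign under every alternative run, with ranges of -0.41 to -0.31 in NIK against β-Gal, -0.25 to -0.20 in NIK(KA) against β-Gal and -0.18 to -0.11 in NIK against NIK(KA). The number of genes 1.5-fold lower in NIK than in β-Gal was 8 with upper quartile scaling, against 5; that scaling moves the median of all genes by -0.08. It was 7 with a pseudocount of 0.1, 6 with equal library sums, 4 with a pseudocount of 5 and 5 under the other alternatives. The number 1.5-fold higher in NIK than in NIK(KA) was 1 with a pseudocount of 5, against 2, since a larger pseudocount shrinks differences. Of 525 single-gene differences recomputed, 501 stayed within their counting interval and 24 moved beyond it. In 12 the sign changed, all of them near 0 in Trib3, Ero1l, Atf6, Atf4, Asns, Wfs1 and Ern1. No paired analysis was possible because each group held 1 library. For the same reason no replicate could be left out, and differences between cultures, infections or library preparations cannot be told apart from those between the viruses.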
